A study of Mus musculus with 18 samples.

Results

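Transcripts of integrin subunits and cadherins were compared between mouse melanoma allografts in which an NRAS oncogene was shut off, allografts treated with a MEK inhibitor and allografts given vehicle. The genes were chosen by symbol. Every probe set with exactly 1 gene symbol that begins with Itga, with Itgb and a digit or with Cdh and a digit was taken, except those of Itgam, Itgax, Cdh5 and Cdh19. This gave 98 of 45037 probe sets and 45 of 18193 genes. The symbols go beyond the integrins and classical cadherins in 8 cases. Itgb1bp1, Itgb1bp2 and Itgb3bp encode proteins named for binding an integrin tail, and Cdh13, Cdh16, Cdh17, Cdh23 and Cdh26 encode cadherins outside the classical type I and type II groups. Of the 45 genes, 39 were bright enough to be tested. Cdh7, Cdh8, Cdh9, Cdh17, Cdh18 and Itgb6 averaged at or below the filter at an intensity of 23.5 and were not tested.

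The tumours grew from iNRAS-475, a single mouse melanoma line with a doxycycline-dependent NRAS oncogene, after intradermal injection into nude mice, hosts without a normal T cell compartment that keep their myeloid and NK cells. All mice drank 2 mg/ml doxycycline while tumours grew for 6 weeks to 200 to 500 mm3. In the -NRAS group doxycycline was then withdrawn for 4 days, in the MEKi group mice received AZD6244 (selumetinib, an inhibitor of the kinases MEK1 and MEK2) at 100 mg/kg for 4 days, and the third group received vehicle for a time the labels do not give. Each group held 6 distinct tumours on 1 array each, so n = 6 per group throughout. Withdrawal of doxycycline itself and loss of the oncogene cannot be told apart, since the other tumours were not taken off the drug.

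The arrays had medians of 72.3 to 78.5 intensity units, and arrays of the same group correlated at 0.9871 to 0.997 across probe sets. The tissue was checked with 9 melanocytic markers, of which Sox10, Mitf, Pmel, Mlana, Dct and Slc45a2 were above the filter and Tyr, Tyrp1 and Trpm1 below it. The 2 tumours with the highest mean log2 level of the keratinocyte markers, -NRAS replicate 2 and MEKi replicate 6, are named beside the results that depend on them. Markers of cell types that host tissue can supply differed between groups. Tumour line and host are both mouse, so the source of these transcripts cannot be told apart. The macrophage list was higher in 13 of 13 members in -NRAS tumours against vehicle and lower in 10 of 13 in MEKi tumours. In the fibroblast list 9 of 11 were higher and 2 lower in -NRAS tumours, and 7 of 11 higher and 1 lower in MEKi tumours. Marker counts here and below stand beside 31.8% higher and 27.5% lower of all genes tested in -NRAS tumours and 24.3% and 20.9% in MEKi tumours. No member of any marker list was at 0 in any tumour. Array signal from a tumour piece mixes all of its cells, so fewer cells of a type and less RNA per cell cannot be told apart here.

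Integrins are receptors of 1 alpha and 1 beta chain that tie the cytoskeleton to the extracellular matrix or to counter-receptors on other cells. The alpha chain largely sets the ligand, and the beta tail recruits talin, kindlin and the other proteins of the adhesion complex. Classical cadherins bind the same or a related cadherin on a neighbouring cell and hold catenins at their tails. In melanocytes, E-cadherin links the pigment cell to keratinocytes, and melanoma is known for N-cadherin and for the beta 3 integrin chain in its invasive phase.

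Promoters of 4 genes on which the results turn are shown here, since their transcripts moved most or only under MEK inhibition. RefSeq (GRCm38.p6) gave windows of 250 bases before to 50 bases after a start for 29 of the 45 genes, 33 windows in all. They are printed 5′ to 3′ on the strand of the gene, with motif matches in capitals.
Cdh10 (chr15:18820079-18820378, plus strand): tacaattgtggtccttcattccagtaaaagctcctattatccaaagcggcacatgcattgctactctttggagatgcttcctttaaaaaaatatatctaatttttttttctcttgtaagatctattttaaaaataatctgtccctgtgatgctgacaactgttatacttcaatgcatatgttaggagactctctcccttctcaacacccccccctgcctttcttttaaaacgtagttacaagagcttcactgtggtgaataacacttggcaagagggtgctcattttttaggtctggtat
Itga8 (chr2:12301895-12302194, minus strand): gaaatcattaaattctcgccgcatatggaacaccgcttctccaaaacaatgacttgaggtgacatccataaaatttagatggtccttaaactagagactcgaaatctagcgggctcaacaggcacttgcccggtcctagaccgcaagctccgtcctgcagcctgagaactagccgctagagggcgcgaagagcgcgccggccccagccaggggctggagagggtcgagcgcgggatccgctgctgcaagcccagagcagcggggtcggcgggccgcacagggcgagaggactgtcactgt
Itga3 (chr11:95076665-95076964, minus strand): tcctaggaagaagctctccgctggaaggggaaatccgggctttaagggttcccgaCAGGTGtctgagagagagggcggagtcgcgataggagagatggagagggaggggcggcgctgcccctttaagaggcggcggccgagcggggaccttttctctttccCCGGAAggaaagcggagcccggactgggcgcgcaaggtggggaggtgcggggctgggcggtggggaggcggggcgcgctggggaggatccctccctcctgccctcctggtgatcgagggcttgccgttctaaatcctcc
Itgb8 (chr12:119238227-119238526, minus strand): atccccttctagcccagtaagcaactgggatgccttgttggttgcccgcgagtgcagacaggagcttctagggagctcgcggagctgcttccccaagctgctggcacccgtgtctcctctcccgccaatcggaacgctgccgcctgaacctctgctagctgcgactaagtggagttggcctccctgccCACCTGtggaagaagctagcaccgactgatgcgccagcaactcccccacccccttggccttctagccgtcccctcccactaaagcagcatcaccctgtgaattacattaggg

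The windows were searched on both strands for the AP-1 motif TGANTCA and the ETS core CCGGAA, whose factors lie downstream of ERK, for the E-box CACCTG, which SNAIL factors bind, and for the E-box CACGTG, which MITF and MYC bind. The capitals of Itga3 mark an E-box CACCTG match, on the reverse strand, beginning 195 bases before the start, and an ETS match beginning 89 bases before it. Those of Itgb8 mark an E-box CACCTG match 62 bases before the start. The letters of the 4 motifs were not found in the Cdh10 and Itga8 windows. A second Itga3 window held 1 AP-1 match, and no matches overlapped in the windows printed. Among the 33 windows of these genes, 2 held the AP-1 motif, 4 the ETS core, 8 the E-box CACCTG and 1 the E-box CACGTG. The same motifs were found in 7.81%, 14.9%, 20.2% and 7.15% of all 32851 mouse windows.

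Against vehicle, 13 of the 39 genes were higher in -NRAS tumours, 13 were lower and 13 did not pass the test. The test was limma on log2(intensity + 16) over 15005 genes, with Benjamini-Hochberg adjusted p under 0.05. Both shares were 33.3%, beside 31.8% of all genes tested that were higher and 27.5% that were lower. In 23 of the 39 (59.0%) the 6 -NRAS values did not overlap the 6 vehicle values, beside 39.2% of all genes. In MEKi tumours 10 were higher (25.6%), 8 were lower (20.5%) and 21 did not pass, beside 24.3% and 20.9% of all genes. The MEKi and vehicle values did not overlap in 9 genes (23.1%), beside 25.5% of all. Directly between the treatments, 13 genes were higher and 11 lower in -NRAS than in MEKi tumours (33.3% and 28.2%), beside 24.3% and 22.7% of all genes, and 18 did not overlap (46.2%), beside 28.3%. Against vehicle the called shares were near those of all genes. The median of the absolute log2 changes over the 39 genes was 0.66 in -NRAS tumours and 0.24 in MEKi tumours, beside 0.24 and 0.17 over all genes.

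**Figure D1:**
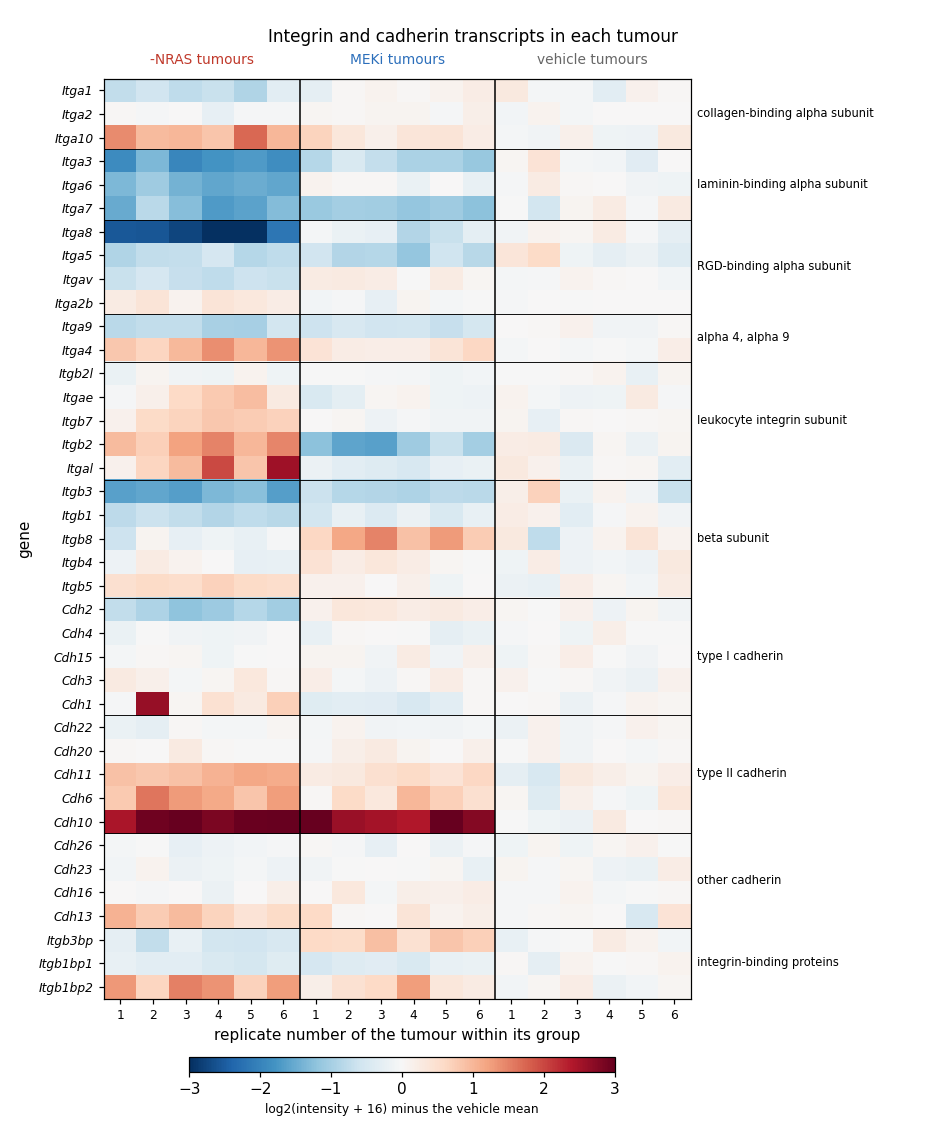
Heat map of 39 genes (rows, grouped by role) in the 18 tumours (columns, -NRAS, MEKi, then vehicle, by replicate number), coloured by log2(intensity + 16) minus the vehicle mean, with colours ending at a difference of 3 in either direction. Itga8 is darkest blue in all 6 -NRAS tumours, Cdh10 is dark red in all 12 treated tumours, and Cdh1 is dark red in -NRAS replicate 2 alone.

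The laminin-binding alpha chains were lower in -NRAS tumours in all 3 cases, each without overlap, and 2 of the 3 were lower in MEKi tumours. Among all genes 27.5% were lower and 39.2% did not overlap in -NRAS tumours, and 20.9% were lower in MEKi tumours. Itga3, the alpha 3 chain that binds laminins of the basement membrane, had intensities of 152 to 242 (median 168) in -NRAS tumours, 281 to 459 (median 334) in MEKi tumours and 497 to 852 (median 626) in vehicle tumours. The 3 groups did not overlap, and MEKi tumours lay between the others. Its log2 difference was −1.76 ± 0.13 (adjusted p = 8.91e-10) for -NRAS minus vehicle, a 3.38-fold lower level, and −0.84 ± 0.13 (adjusted p = 2.34e-05) for MEKi minus vehicle. The direct difference of -NRAS minus MEKi was −0.91 ± 0.13 (adjusted p = 7.21e-06). Here and below ± is the standard error of the limma estimate. Fold changes are those of intensity + 16, so they are smaller than ratios of the intensities, most of all at low levels.

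Itga6, the alpha 6 chain of laminin receptors, was lower in -NRAS tumours against both other groups. Its intensity was 1869.8 to 2608 (median 2005) in -NRAS tumours, 4718 to 5896 (median 5602) in MEKi tumours and 5019 to 6509.7 (median 5439) in vehicle tumours. All -NRAS tumours lay below every other tumour, and MEKi and vehicle tumours overlapped. The log2 difference was −1.40 ± 0.08 (adjusted p = 7.04e-11) for -NRAS minus vehicle and −1.37 ± 0.08 (adjusted p = 3.34e-10) for -NRAS minus MEKi, and for MEKi minus vehicle it did not pass (−0.04, 95% interval −0.21 to 0.14, adjusted p = 0.755).

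Itga7, the alpha 7 chain best known as the laminin receptor of skeletal muscle, was lower under both treatments. Intensities were 358 to 679.7 (median 443) in -NRAS tumours, 501 to 587 (median 555) in MEKi tumours and 815 to 1452 (median 1230.4) in vehicle tumours. Vehicle tumours stood above all treated ones, which overlapped each other. On the log2 scale the difference was −1.37 ± 0.14 (adjusted p = 7.72e-08) in -NRAS and −1.11 ± 0.14 (adjusted p = 2.65e-06) in MEKi tumours against vehicle. Between the treatments it did not pass (−0.26, 95% interval −0.55 to 0.03, adjusted p = 0.131), and it did without -NRAS replicate 2, which had the highest -NRAS level (−0.37, adjusted p = 0.0142). Over the same tumours the skeletal muscle list went the other way, with 11 of 12 markers higher in -NRAS and 10 of 12 higher in MEKi tumours, and a summed intensity of 35499 to 54757 in -NRAS tumours, 21331 to 50607 in MEKi tumours and 3555 to 18525 in vehicle tumours.

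Of the 4 alpha chains whose ligands carry the RGD sequence, Itga8, Itga5 and Itgav were lower in -NRAS tumours and Itga2b was higher. Of all genes tested 27.5% were lower and 31.8% higher there. Itga8, the alpha 8 chain that pairs with beta 1 and binds nephronectin and fibronectin, fell most of the 39 genes. It had 201 to 497 (median 349) in -NRAS tumours, 1232 to 2182 (median 1894) in MEKi tumours and 1886 to 2721 (median 2323) in vehicle tumours. The -NRAS values did not reach those of either other group, while MEKi and vehicle values overlapped. It differed on the log2 scale by −2.77 ± 0.18 (adjusted p = 1.74e-10) for -NRAS minus vehicle, 6.8-fold lower, and −2.37 ± 0.18 (adjusted p = 3.49e-09) for -NRAS minus MEKi. For MEKi minus vehicle it missed the threshold (−0.40, 95% interval −0.77 to −0.03, adjusted p = 0.0755), and passed when -NRAS replicate 5 or 6 was left out of the shared fit (−0.40, adjusted p = 0.0431 and 0.0479) or when only the 2 groups were fitted (adjusted p = 0.0237). The second Itga8 probe set, 1427489_at, was lower in MEKi tumours (−0.60 ± 0.17, adjusted p = 0.0106), as was the mean of both (−0.50, adjusted p = 0.00769), so the MEKi call depends on the probe set. The pericyte and smooth muscle list, cells that also use alpha 8, was higher in 4 of 8 and lower in 2 of 8 members in -NRAS tumours, with sums of 8073 to 12133 in -NRAS tumours, 10190.2 to 12902 in MEKi tumours and 9249.6 to 12049 in vehicle tumours, and its part in the Itga8 result was not tested.

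Itga5, the alpha 5 chain of the classical fibronectin receptor, was lower under both treatments. It measured 148 to 199.9 (median 166) in -NRAS tumours, 122 to 191 (median 157) in MEKi tumours and 219.9 to 444 (median 262) in vehicle tumours. Every vehicle tumour lay above all 12 treated ones. In limma the log2 difference was −0.75 ± 0.14 (adjusted p = 1.35e-04) in -NRAS and −0.81 ± 0.14 (adjusted p = 1.11e-04) in MEKi tumours, and the interval of the difference between the treatments ran −0.24 to 0.36.

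Itgav, the alpha v chain shared by the vitronectin receptors and by integrins that activate latent TGF-beta, was lower in -NRAS tumours and, on the probe set used, slightly higher in MEKi tumours. Its levels were 4458 to 5340.5 (median 4744) in -NRAS tumours, 7474 to 9121 (median 8838) in MEKi tumours and 7091 to 8116 (median 7517) in vehicle tumours. The -NRAS tumours stood below all others. The log2 difference was −0.65 ± 0.06 (adjusted p = 1.55e-08) for -NRAS minus vehicle, 0.17 ± 0.06 (adjusted p = 0.019) for MEKi minus vehicle and −0.82 ± 0.06 (adjusted p = 1.60e-09) for -NRAS minus MEKi. The call in MEKi tumours depends on the probe set. Another Itgav probe set, 1421198_at, gave −0.47 ± 0.12 (adjusted p = 0.00517) there and −1.46 ± 0.12 (adjusted p = 1.12e-08) in -NRAS tumours.

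Itga2b, the platelet alpha IIb chain, was modestly higher in -NRAS tumours, at 213 to 264 in -NRAS tumours, 165 to 210.2 in MEKi tumours and 194 to 199.8 in vehicle tumours (log2 difference 0.27 ± 0.06, adjusted p = 3.23e-04 against vehicle). In MEKi tumours it did not pass (−0.05, 95% interval −0.17 to 0.06, adjusted p = 0.471). Of 6 platelet and megakaryocyte markers tested, 1 was higher and 3 were lower in -NRAS tumours, with sums of 926 to 1377 in -NRAS tumours, 632 to 739 in MEKi tumours and 917 to 1105 in vehicle tumours over 7 markers. Their part in the Itga2b result was not tested.

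**Figure D2:**
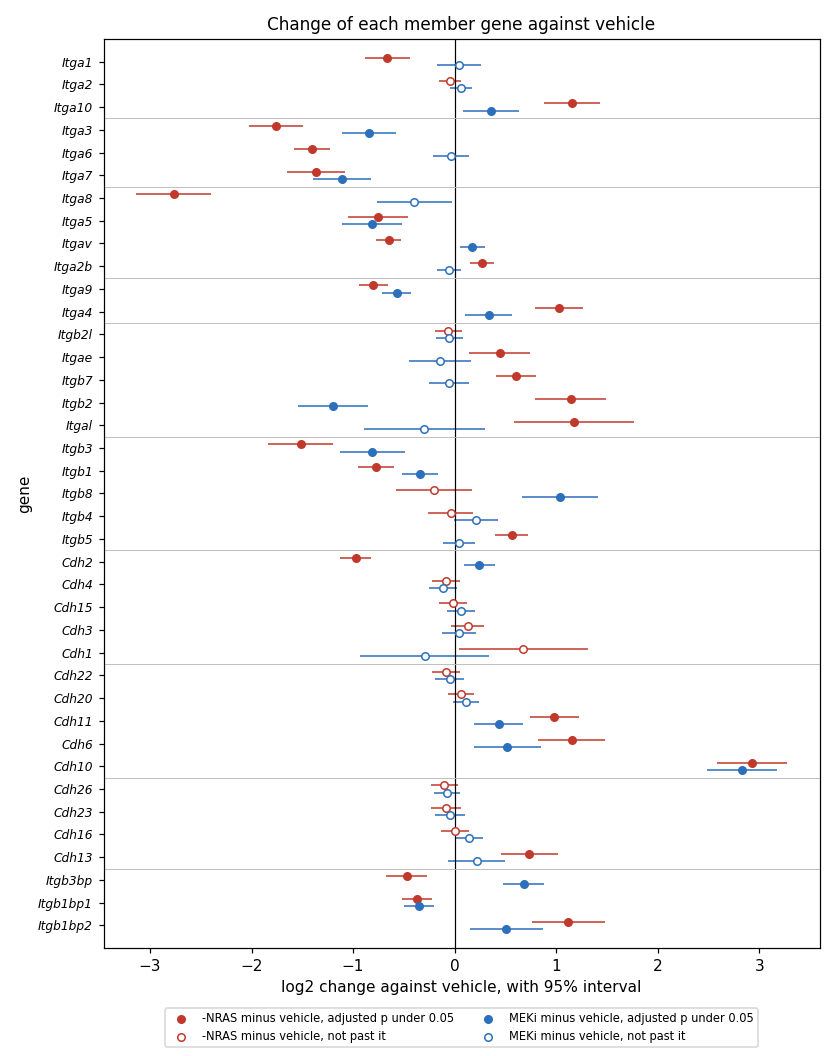
Log2 change of each of 39 genes against vehicle with its 95% interval, for -NRAS (red, upper point) and MEKi tumours (blue, lower point); filled points passed an adjusted p of 0.05. Itga8 at −2.77 and Cdh10 at 2.93 and 2.83 lie farthest from 0, and Itgb2, Cdh2, Itgav and Itgb3bp have filled points on opposite sides of 0.

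The collagen-binding alpha chains went different ways. Itga1, a receptor for basement membrane collagen, was lower in -NRAS tumours, at 233 to 359.7 in -NRAS tumours, 372 to 532 in MEKi tumours and 360.0 to 553 in vehicle tumours (log2 difference −0.66 ± 0.10, adjusted p = 2.04e-05 against vehicle and −0.70 ± 0.10, adjusted p = 1.62e-05 against MEKi). Its MEKi change did not pass on the probe set used (0.04, 95% interval −0.18 to 0.26, adjusted p = 0.782) and was 0.71 ± 0.10 (adjusted p = 2.33e-05) on the other one, 1439713_at, so the MEKi call rests on the choice of probe set. Itga10, a collagen receptor typical of cartilage, was higher in -NRAS tumours. It had 115 to 226 (median 130.4) in -NRAS tumours, 65.4 to 101 (median 77.5) in MEKi tumours and 49.5 to 73.5 (median 52.8) in vehicle tumours. The -NRAS values lay above all others, and the log2 difference was 1.16 ± 0.13 (adjusted p = 4.04e-07) against vehicle and 0.80 ± 0.13 (adjusted p = 5.53e-05) against MEKi. The smaller MEKi difference of 0.36 ± 0.13 (adjusted p = 0.0331) lost its call when vehicle replicate 1, 2, 4 or 5 or MEKi replicate 1 or 5 was left out (log2 0.30 to 0.35). Itga2, the main collagen receptor of platelets and epithelium, passed in no comparison, at 51.6 to 66.3 in -NRAS tumours, 62.5 to 74.2 in MEKi tumours and 59.6 to 70.3 in vehicle tumours. It was lower in -NRAS than in MEKi tumours without MEKi replicate 5 (−0.13, adjusted p = 0.049).

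Itga9, the alpha 9 chain, which binds tenascin-C, was lower under both treatments and without overlap with vehicle, at 260.0 to 360.4 (median 306) in -NRAS tumours, 323 to 380.5 (median 359) in MEKi tumours and 494 to 586 (median 544) in vehicle tumours. On the log2 scale the difference was −0.80 ± 0.07 (adjusted p = 1.12e-08) in -NRAS and −0.57 ± 0.07 (adjusted p = 2.06e-06) in MEKi tumours, and −0.23 ± 0.07 (adjusted p = 0.0106) between them, where the groups overlapped. Itga4, the alpha 4 chain that binds VCAM-1 and fibronectin, gave no single direction in -NRAS tumours. The probe set used, 1436037_at, had 304 to 518 (median 385) in -NRAS tumours, 216 to 299 (median 235) in MEKi tumours and 179 to 216 (median 182) in vehicle tumours. It was higher in -NRAS than in vehicle tumours without overlap (1.03 ± 0.11, adjusted p = 1.89e-07), higher in MEKi tumours (0.34 ± 0.11, adjusted p = 0.0177) and higher in -NRAS than in MEKi tumours (0.69 ± 0.11, adjusted p = 4.00e-05). Another probe set of the same gene, 1421194_at, was lower in -NRAS than in vehicle tumours at −0.28 ± 0.10 (adjusted p = 0.0324) and lower than in MEKi tumours at −1.12 ± 0.10 (adjusted p = 9.62e-08). A further one near the filter, 1450155_at, was also lower in -NRAS than in MEKi tumours (−0.52 ± 0.07, adjusted p = 1.56e-05). There 1456498_at did not pass (−0.29 ± 0.11, adjusted p = 0.0508). For -NRAS minus vehicle neither 1450155_at nor 1456498_at passed (−0.18 and 0.21, adjusted p = 0.0574 and 0.137). In MEKi tumours all 4 Itga4 probe sets above the filter were higher than in vehicle tumours. Alpha 4 is also a leukocyte chain, and the pan-leukocyte list given below moved with the probe set used in -NRAS tumours and against it in MEKi tumours.

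Of the beta chains of matrix receptors, Itgb1 and Itgb3 were lower and Itgb5 higher in -NRAS tumours, and Itgb8 was higher in MEKi tumours alone. Itgb1, the beta 1 chain and most widely shared partner of the alpha chains, had 2936 to 3428 (median 3141) in -NRAS tumours, 3681 to 4818 (median 4331) in MEKi tumours and 4342 to 6292 (median 5562) in vehicle tumours. The -NRAS tumours lay below all others, while MEKi and vehicle tumours overlapped. Its log2 difference was −0.78 ± 0.08 (adjusted p = 2.20e-07) for -NRAS minus vehicle, −0.34 ± 0.08 (adjusted p = 0.00281) for MEKi minus vehicle and −0.44 ± 0.08 (adjusted p = 2.76e-04) for -NRAS minus MEKi. Itgb3, the beta 3 chain that pairs with alpha v and alpha IIb and marks the vertical growth phase in human melanoma, measured 158 to 212 (median 164) in -NRAS tumours, 271 to 335 (median 290.0) in MEKi tumours and 324 to 864 (median 531) in vehicle tumours. The -NRAS values did not overlap those of either other group, and the lowest vehicle tumour, replicate 6, fell inside the MEKi range. It differed on the log2 scale by −1.51 ± 0.15 (adjusted p = 8.21e-08) in -NRAS and −0.81 ± 0.15 (adjusted p = 2.42e-04) in MEKi tumours against vehicle, and −0.70 ± 0.15 (adjusted p = 8.40e-04) between the treatments.

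Itgb8, the beta 8 chain that with alpha v activates latent TGF-beta, was 493 to 806 (median 673) in -NRAS tumours, 1194 to 2180.2 (median 1584) in MEKi tumours and 443 to 1012 (median 829) in vehicle tumours. All MEKi tumours exceeded every other tumour. In limma the log2 difference was 1.03 ± 0.18 (adjusted p = 1.05e-04) for MEKi minus vehicle, 2.05-fold, and −1.23 ± 0.18 (adjusted p = 1.25e-05) for -NRAS minus MEKi. In -NRAS tumours it did not pass (−0.20, 95% interval −0.57 to 0.17, adjusted p = 0.351). Itgb5, a vitronectin receptor chain, was higher in -NRAS tumours at 6241 to 7247 in -NRAS tumours, 4084 to 4929 in MEKi tumours and 3795 to 5261 in vehicle tumours (log2 difference 0.56 ± 0.08, adjusted p = 3.51e-06 against vehicle and 0.52 ± 0.08, adjusted p = 1.59e-05 against MEKi). The -NRAS tumours lay above all others, while MEKi and vehicle tumours overlapped. The fibroblast list, with 9 of 11 members higher and 2 lower, moved with it in -NRAS tumours. In MEKi tumours 7 of 11 members were higher and 1 lower, while Itgb5 did not pass (0.05 ± 0.08, adjusted p = 0.668). The list summed to 193051 to 227675 in -NRAS tumours, 133058 to 141378 in MEKi tumours and 87884 to 105867 in vehicle tumours. Its part in this and in the cadherin results below was not tested. Itgb4, the alpha 6 partner of hemidesmosomes, passed in no comparison, at 74.9 to 110.1 in -NRAS tumours, 89.8 to 129.5 in MEKi tumours and 80.5 to 116 in vehicle tumours. Calls for Itgb4 appeared when single tumours were left out and under other settings. It was higher in MEKi than in vehicle tumours without vehicle replicate 6 (0.27, adjusted p = 0.0376). It was lower in -NRAS than in MEKi tumours without vehicle replicate 2 or 6, -NRAS replicate 2 or 3 or MEKi replicate 5 or 6 (−0.31 to −0.25, adjusted p of 0.0199 to 0.0493). The same call came with a filter at the 50th percentile, median centring, quantile normalization, array weights or a pairwise fit (adjusted p of 0.0206 to 0.049). Without both -NRAS replicate 2 and MEKi replicate 6, Itgb4 passed in this comparison (−0.35, adjusted p = 0.01) and in MEKi minus vehicle (0.26, adjusted p = 0.0443).

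**Figure D3:**
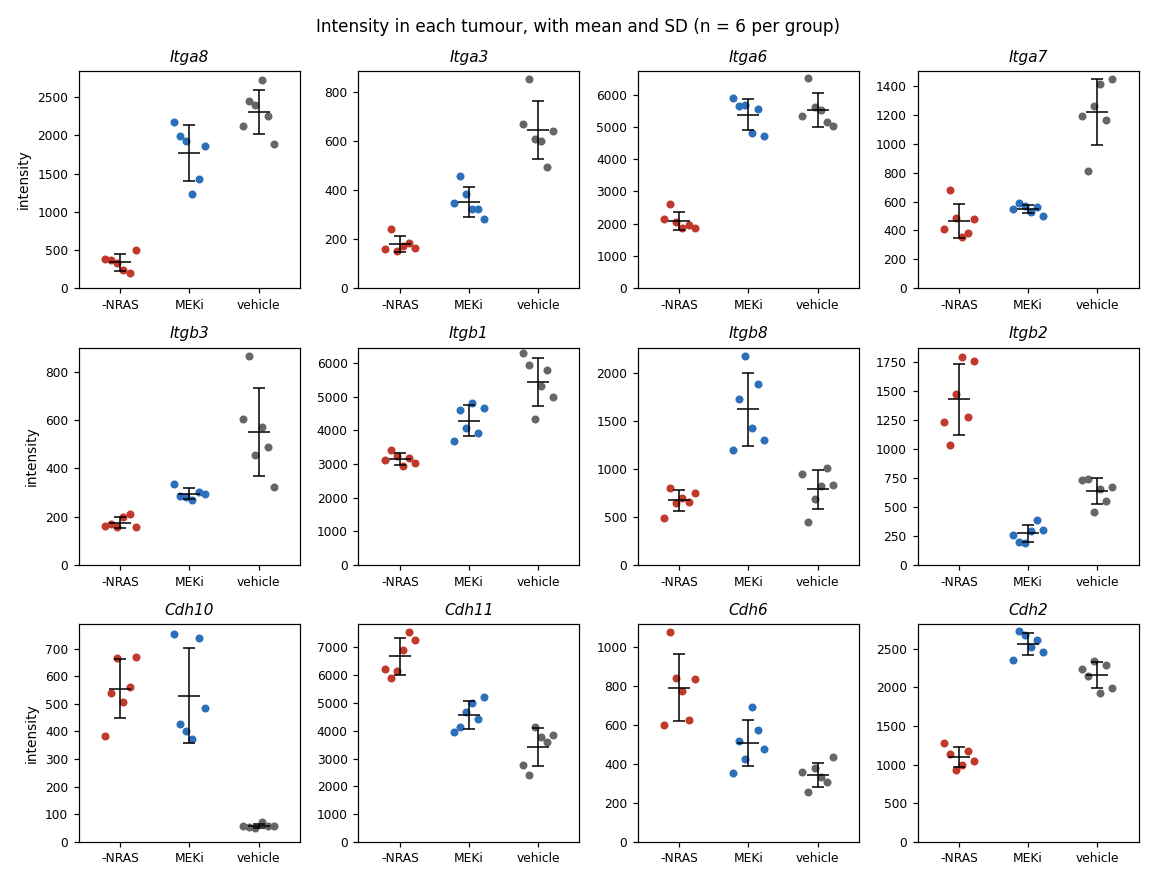
Intensity (linear axes from 0, a scale of its own for each gene) of 12 genes in each tumour, with the group mean and SD (n = 6), for -NRAS, MEKi and vehicle tumours from left to right. For Itga8, Itga6 and Cdh2 the -NRAS tumours are the low group, for Itgb8 the MEKi tumours are the high group, and for Cdh10 the vehicle tumours lie between 49.6 and 72.4, below all treated ones.

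Leukocyte integrin chains were higher in -NRAS tumours for 4 of 5 genes and lower in MEKi tumours for 1 of 5, beside 31.8% of all genes higher in -NRAS and 20.9% lower in MEKi tumours. Itgb2, the beta 2 chain common to the leukocyte integrins, had 1038 to 1797 (median 1378) in -NRAS tumours, 193 to 387 (median 274) in MEKi tumours and 459.8 to 743 (median 664) in vehicle tumours. The 3 groups did not overlap, with -NRAS tumours high and MEKi tumours low. Its log2 difference was 1.14 ± 0.17 (adjusted p = 7.98e-06) for -NRAS minus vehicle, −1.20 ± 0.17 (adjusted p = 9.94e-06) for MEKi minus vehicle and 2.34 ± 0.17 (adjusted p = 1.88e-09) for -NRAS minus MEKi, the last a 5.06-fold difference. The 5 pan-leukocyte markers moved with it. All 5 were higher in -NRAS tumours and 4 of 5 were lower in MEKi tumours, and their summed intensity was 10192 to 15264 in -NRAS tumours, 2409.5 to 4007 in MEKi tumours and 4401 to 6118 in vehicle tumours, again without overlap. The part of leukocyte number in the Itgb2 result was not tested.

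Itgal, the alpha L chain of LFA-1, which pairs with beta 2 on lymphocytes and other leukocytes, was 94.1 to 572 (median 169.7) in -NRAS tumours, 55.9 to 73.5 (median 66.8) in MEKi tumours and 64.5 to 108 (median 88) in vehicle tumours. The -NRAS tumours spread over a wide range, and replicate 1 overlapped the vehicle values. The log2 difference was 1.17 ± 0.28 (adjusted p = 0.00143) for -NRAS minus vehicle and 1.47 ± 0.28 (adjusted p = 2.61e-04) for -NRAS minus MEKi. Against vehicle the MEKi value was −0.30, 95% interval −0.89 to 0.30, adjusted p = 0.427, and it passed when only these groups were fitted (adjusted p = 0.0197). All 6 NK and T lymphocyte markers tested were higher in -NRAS tumours, and in MEKi tumours their log2 differences lay between −0.33 and 0.04. Over 7 markers they summed to 370.1 to 2521 in -NRAS tumours, 271 to 351 in MEKi tumours and 267 to 440.4 in vehicle tumours. The 2 tumours highest in this sum, -NRAS replicates 6 and 4 at 2521 and 1095, were also the 2 highest for Itgal, at 572 and 378. The other Itgal probe set, 1425367_at, did not pass in -NRAS tumours (0.00 ± 0.08, adjusted p = 0.968).

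Itgb7, the beta 7 chain of gut-homing and intraepithelial lymphocytes, also found on mast cells, was higher in -NRAS tumours at 98.7 to 168 in -NRAS tumours, 79.1 to 93.3 in MEKi tumours and 73.1 to 95.8 in vehicle tumours (log2 difference 0.60 ± 0.09, adjusted p = 1.53e-05 against vehicle). Itgae, the alpha E chain that pairs with beta 7 and binds E-cadherin, was higher at 56.2 to 125 in -NRAS tumours, 38.1 to 64.1 in MEKi tumours and 51.3 to 74 in vehicle tumours, with overlap (0.45 ± 0.14, adjusted p = 0.0118). Neither passed in MEKi tumours (−0.06 ± 0.09, adjusted p = 0.67, and −0.14 ± 0.14, adjusted p = 0.452). Of 7 mast cell markers, 4 were higher in -NRAS and 6 lower in MEKi tumours, with sums of 1533 to 2575 in -NRAS tumours, 354 to 1027 in MEKi tumours and 937 to 1823 in vehicle tumours. Itgb2l passed in no comparison, at 55.7 to 72.6 in -NRAS tumours, 59.8 to 65.6 in MEKi tumours and 54.6 to 72.6 in vehicle tumours.

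**Figure D4:**
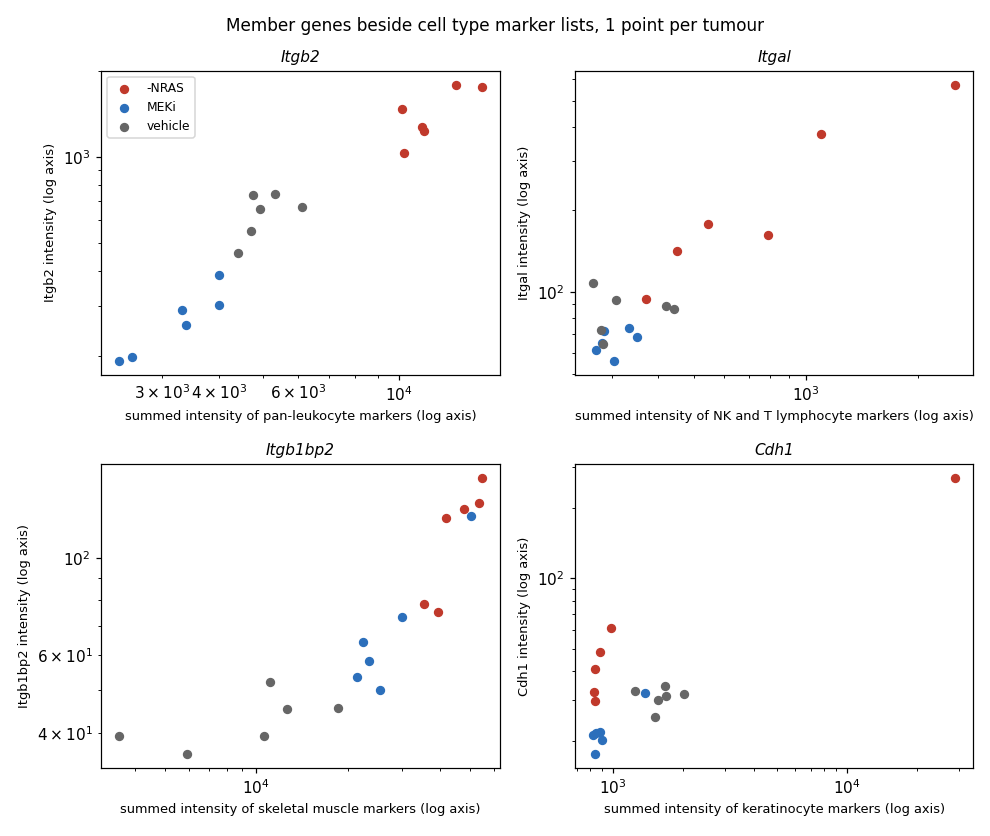
Intensity of Itgb2, Itgal, Itgb1bp2 and Cdh1 (vertical, log axes) against the summed intensity of a marker list (horizontal, log axes) in each of 18 tumours, coloured red for -NRAS, blue for MEKi and grey for vehicle. For Itgb2 the groups are separated on both axes, and for Cdh1 a single -NRAS tumour, at 29082 and 269.9, stands apart.

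Among type II cadherins, Cdh10, Cdh11 and Cdh6 were higher under both treatments on the probe sets used, and Cdh20 and Cdh22 passed in no comparison. Of all genes tested 31.8% were higher in -NRAS and 24.3% in MEKi tumours. Cdh10, a type II cadherin best known from brain, rose most of the 39 genes. It had 384 to 668 (median 550.1) in -NRAS tumours, 373 to 752 (median 456) in MEKi tumours and 49.6 to 72.4 (median 57.8) in vehicle tumours. Each of the 12 treated tumours exceeded the highest vehicle tumour, and the treated groups overlapped. On the log2 scale the difference was 2.93 ± 0.17 (adjusted p = 3.42e-11) in -NRAS tumours and 2.83 ± 0.17 (adjusted p = 2.58e-10) in MEKi tumours. In intensity + 16 these are 7.61-fold and 7.12-fold, less than the ratios of the intensities themselves. Between the treatments the probe set used did not pass (0.10, 95% interval −0.25 to 0.44, adjusted p = 0.67), while another one, 1460538_at, was higher in -NRAS tumours (0.48 ± 0.17, adjusted p = 0.0339). That probe set gave 3.06 ± 0.17 (adjusted p = 4.67e-11) and 2.58 ± 0.17 (adjusted p = 1.62e-09) against vehicle.

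Cdh11, known as OB-cadherin and typical of mesenchymal cells, had 5902 to 7571 (median 6573) in -NRAS tumours, 3957 to 5215 (median 4552) in MEKi tumours and 2407 to 4141 (median 3684) in vehicle tumours. The -NRAS tumours lay above all others, and the highest vehicle tumour, replicate 3, lay inside the MEKi range. It differed on the log2 scale by 0.98 ± 0.12 (adjusted p = 6.34e-07) in -NRAS and 0.43 ± 0.12 (adjusted p = 0.00481) in MEKi tumours against vehicle, and 0.55 ± 0.12 (adjusted p = 6.57e-04) between them. The second Cdh11 probe set, 1435120_at, did not pass in MEKi tumours (0.22 ± 0.14, adjusted p = 0.299). Cdh6, K-cadherin, which marks kidney and early neural crest, had 602 to 1078 (median 807) in -NRAS tumours, 352 to 694 (median 499) in MEKi tumours and 256 to 439 (median 346) in vehicle tumours. The -NRAS and vehicle values did not overlap, and MEKi tumours overlapped both. Its log2 difference was 1.15 ± 0.16 (adjusted p = 3.88e-06) in -NRAS tumours, 0.52 ± 0.16 (adjusted p = 0.0113) in MEKi tumours and 0.63 ± 0.16 (adjusted p = 0.0026) between them. The MEKi call did not hold for the second Cdh6 probe set, 1450288_at (−0.03 ± 0.12, adjusted p = 0.903). Fibroblasts also express Cdh11, and the summed fibroblast list given above was ordered -NRAS, MEKi, vehicle without overlap. Cdh20 and Cdh22, both near the filter, had 22.5 to 30.7 in -NRAS tumours, 21.8 to 30.8 in MEKi tumours and 19.9 to 26 in vehicle tumours for Cdh20 and 24.3 to 34.3 in -NRAS tumours, 28.9 to 36 in MEKi tumours and 26.5 to 36.8 in vehicle tumours for Cdh22.

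Of the type I cadherins, Cdh2 changed in both treated groups in opposite directions on the probe set used, and no other passed against vehicle. Cdh2, N-cadherin, was 927 to 1279 (median 1089) in -NRAS tumours, 2350.4 to 2727 (median 2564) in MEKi tumours and 1933 to 2344 (median 2197) in vehicle tumours. No value was shared between groups, with -NRAS tumours low and MEKi tumours just above the vehicle range. In limma the log2 difference was −0.97 ± 0.07 (adjusted p = 1.21e-09) for -NRAS minus vehicle, 1.97-fold lower, 0.24 ± 0.07 (adjusted p = 0.00908) for MEKi minus vehicle and −1.22 ± 0.07 (adjusted p = 2.03e-10) for -NRAS minus MEKi. A second probe set, 1449244_at, was also lower in -NRAS tumours (−1.29 ± 0.09, adjusted p = 1.28e-09) but did not pass in MEKi tumours (−0.06 ± 0.09, adjusted p = 0.675).

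Cdh1, E-cadherin, was near the filter in most tumours, at 29.7 to 269.9 (median 44.5) in -NRAS tumours, 17.6 to 32.2 (median 21.5) in MEKi tumours and 25.5 to 34.5 (median 31.6) in vehicle tumours. A single tumour, -NRAS replicate 2, reached 269.9, and the same tumour held a summed keratinocyte marker intensity of 29082, beside 830.3 to 982 in the other -NRAS tumours, 821 to 1375 in MEKi tumours and 1245 to 2009 in vehicle tumours. Of 10 keratinocyte markers 1, Pkp1, was lower in each treated group. With all tumours Cdh1 did not pass in -NRAS tumours against vehicle (0.68, 95% interval 0.04 to 1.31, adjusted p = 0.0626), and it was higher in -NRAS than in MEKi tumours (0.97 ± 0.30, adjusted p = 0.0127; 0.59 ± 0.11, adjusted p = 0.00035 without -NRAS replicate 2). Without that tumour its difference against vehicle was 0.29 (adjusted p = 0.0371), and without -NRAS replicate 1 or 3 it was 0.82 and 0.80 (adjusted p = 0.0292 and 0.0348). In MEKi tumours the log2 difference was −0.30 (adjusted p = 0.465), which passed without -NRAS replicate 2 in the shared fit (adjusted p = 0.0344), in a fit of only these groups (adjusted p = 0.00738), and without -NRAS replicate 2 and MEKi replicate 6 (−0.36, adjusted p = 0.00975).

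Cdh3, P-cadherin, which is found in basal epidermis and hair follicles, had 54.2 to 75.8 (median 63.5) in -NRAS tumours, 49.9 to 70.4 (median 59.3) in MEKi tumours and 49.1 to 64.8 (median 58.6) in vehicle tumours. All groups overlapped, and the log2 difference was 0.13, 95% interval −0.04 to 0.29, adjusted p = 0.174 in -NRAS tumours and 0.05, 95% interval −0.12 to 0.21, adjusted p = 0.683 in MEKi tumours. Cdh4, R-cadherin, and Cdh15, M-cadherin of muscle, passed in no comparison, at 26.7 to 33.8 in -NRAS tumours, 24.8 to 34.5 in MEKi tumours and 29.2 to 39.8 in vehicle tumours for Cdh4 and 71.1 to 83.4 in -NRAS tumours, 72.9 to 97 in MEKi tumours and 71 to 92.6 in vehicle tumours for Cdh15.

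Of the cadherins outside the classical groups, Cdh13 alone passed. Cdh13, T-cadherin, which has a lipid anchor in place of a cytoplasmic tail and binds adiponectin on endothelium, was higher in -NRAS tumours at 229 to 360.1 in -NRAS tumours, 168 to 262 in MEKi tumours and 115 to 225 in vehicle tumours (log2 difference 0.74 ± 0.13, adjusted p = 1.00e-04 against vehicle and 0.52 ± 0.13, adjusted p = 0.00343 against MEKi). Endothelial markers were higher in 10 of 11 cases in -NRAS tumours, and 2 were higher and 1 lower in MEKi tumours, with sums of 2945 to 4038 in -NRAS tumours, 1869 to 2515 in MEKi tumours and 1599 to 2419 in vehicle tumours. Their part in the Cdh13 result was not tested. Cdh16, a kidney cadherin, had 47.2 to 65.4 in -NRAS tumours, 53.1 to 73.5 in MEKi tumours and 53.3 to 61.4 in vehicle tumours. It passed in MEKi minus vehicle without MEKi replicate 3 (0.18, adjusted p = 0.0308) and in -NRAS minus MEKi without -NRAS replicate 6 or MEKi replicate 3 (−0.17, adjusted p = 0.0362 and 0.0325). Cdh23, of the inner ear tip link, and Cdh26 had 21.2 to 29.3 in -NRAS tumours, 20.1 to 27.7 in MEKi tumours and 20.7 to 33 in vehicle tumours for Cdh23 and 26 to 33.4 in -NRAS tumours, 25.9 to 35.2 in MEKi tumours and 29.7 to 38.6 in vehicle tumours for Cdh26.

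Each of the 3 genes that match by symbol but encode neither an integrin nor a cadherin changed on the probe set used. Of all genes tested 31.8% were higher and 27.5% lower in -NRAS tumours, and 24.3% and 20.9% in MEKi tumours. Itgb3bp, also called CENPR, a protein of the inner kinetochore, was 105 to 156 (median 126) in -NRAS tumours, 259 to 360.4 (median 302) in MEKi tumours and 157 to 221 (median 182) in vehicle tumours. The groups did not overlap, with MEKi tumours high and -NRAS tumours low. Its log2 difference was −0.47 ± 0.10 (adjusted p = 3.30e-04) for -NRAS minus vehicle, 0.68 ± 0.10 (adjusted p = 1.26e-05) for MEKi minus vehicle and −1.15 ± 0.10 (adjusted p = 1.42e-08) for -NRAS minus MEKi. The decrease in -NRAS tumours against vehicle rests on this probe set, 1456097_a_at. The other 3 above the filter, 1420665_at, 1442993_at and 1449953_at, gave −0.02, −0.08 and −0.11 there (adjusted p = 0.907, 0.553 and 0.22), while all 4 were higher in MEKi than in vehicle tumours and lower in -NRAS than in MEKi tumours. Itgb1bp2, melusin, a muscle protein that binds the beta 1 tail, had 75.3 to 152 (median 126) in -NRAS tumours, 50.2 to 124 (median 61.3) in MEKi tumours and 35.8 to 52.3 (median 42.5) in vehicle tumours. The -NRAS values stood above all vehicle values, and MEKi replicate 4 lay far above the other MEKi tumours. That tumour also had the highest skeletal muscle sum of its group, 50607 beside 21331 to 30118. The log2 difference was 1.12 ± 0.17 (adjusted p = 1.39e-05) in -NRAS tumours, 0.51 ± 0.17 (adjusted p = 0.0201) in MEKi tumours and 0.61 ± 0.17 (adjusted p = 0.00615) between them, and the part of skeletal muscle in it was not tested. Itgb1bp1, ICAP1, which competes with talin for the beta 1 tail, was lower in both treated groups at 872 to 1072 in -NRAS tumours, 884 to 1089 in MEKi tumours and 1044 to 1353 in vehicle tumours (log2 difference −0.37 ± 0.07, adjusted p = 1.59e-04 and −0.35 ± 0.07, adjusted p = 4.10e-04).

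The -NRAS and MEKi comparisons share the vehicle tumours, so the direct comparison was used to set them apart. All groupings here are those of the probe set used for each gene, and other probe sets of several genes gave other calls. The genes lower in -NRAS and higher in MEKi tumours were Cdh2, Itgav and Itgb3bp, and each was lower in -NRAS than in MEKi tumours. On other probe sets Cdh2 did not pass and Itgav was lower in MEKi tumours, and Itgb3bp did not pass in -NRAS tumours, each against vehicle. Itgb2 was higher in -NRAS and lower in MEKi tumours, and higher in -NRAS than in MEKi tumours. Lower in both treated groups, and lower still in -NRAS tumours, were Itga3, Itga9, Itgb1 and Itgb3. For Itga9 the direct difference did not pass on its other probe sets, 1450029_s_at and 1420860_at (−0.11 and −0.05, adjusted p = 0.338 and 0.692). Cdh6, Cdh11, Itga10, Itgb1bp2 and Itga4 were higher in both and higher in -NRAS than in MEKi tumours. The second probe sets of Cdh6 and Cdh11 did not pass in MEKi tumours against vehicle. For Itga4 another probe set, 1421194_at, was lower in -NRAS tumours than in either other group. A further one, 1450155_at, was lower in -NRAS than in MEKi tumours. Itga1, Itga6 and Itga8 were lower in -NRAS tumours against both other groups. Another 6 genes, Cdh13, Itga2b, Itgae, Itgal, Itgb5 and Itgb7, were higher against both. For Itga5, Itga7, Itgb1bp1 and Cdh10, which passed against vehicle in both groups, the direct difference did not pass. In 11 genes no comparison passed. The share of all genes tested that falls in each of these groupings was not counted, so the groupings describe these genes alone.

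Probe sets of the same gene were compared because each gene above is read from its probe set with the highest mean. Fitted singly over all 45037 probe sets, 22 of the 98 were higher and 32 lower in -NRAS tumours (22.4% and 32.7%), beside 21.6% and 21.3% of all. In MEKi tumours 20 were higher and 17 lower (20.4% and 17.3%), beside 15.4% and 15.3%. Between the treatments 21 were higher and 24 lower in -NRAS tumours (21.4% and 24.5%), beside 15.7% and 15.2%. In each comparison 1 gene had probe sets called in both directions, which was Itga4 for -NRAS minus vehicle and for -NRAS minus MEKi and Itgav for MEKi minus vehicle. For Itga3, Itga5, Itga6, Itga8, Itga9, Itgb1, Itgb3 and Cdh2 all probe sets above the filter had the same sign in -NRAS tumours. The size of the change differed, and the other probe sets of Itga8 and Itgb3 gave −1.41 ± 0.17 (adjusted p = 1.50e-06) and −0.51 ± 0.11 (adjusted p = 9.53e-04). In MEKi tumours against vehicle the decrease did not pass on a second probe set for Itga3 (−0.26, adjusted p = 0.112), Itga9 (−0.20, adjusted p = 0.0827), Itgb1 (−0.14, adjusted p = 0.188) and Itgb3 (−0.28, adjusted p = 0.0705). That of Itgb1, 1426920_x_at, was near the filter. The decrease did pass on further probe sets of 3 of these genes. They were 1421997_s_at of Itga3 (−0.41, adjusted p = 0.00405) and 1450029_s_at of Itga9 (−0.74, adjusted p = 8.82e-07). For Itgb1 they were 1452545_a_at (−0.49, adjusted p = 2.83e-04) and 1427771_x_at (−0.31, adjusted p = 0.00171). Between the treatments the probe sets that failed against vehicle did not pass either, at −0.17 for Itga3, −0.05 for Itga9, −0.19 for Itgb1 and −0.23 for Itgb3 (adjusted p = 0.316, 0.692, 0.0744 and 0.132). The further ones passed for Itga3 (−0.60, adjusted p = 1.16e-04) and Itgb1 (−0.29 and −0.31, adjusted p = 0.02 and 0.00187). That of Itga9 did not (−0.11, adjusted p = 0.338).

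**Figure D5:**
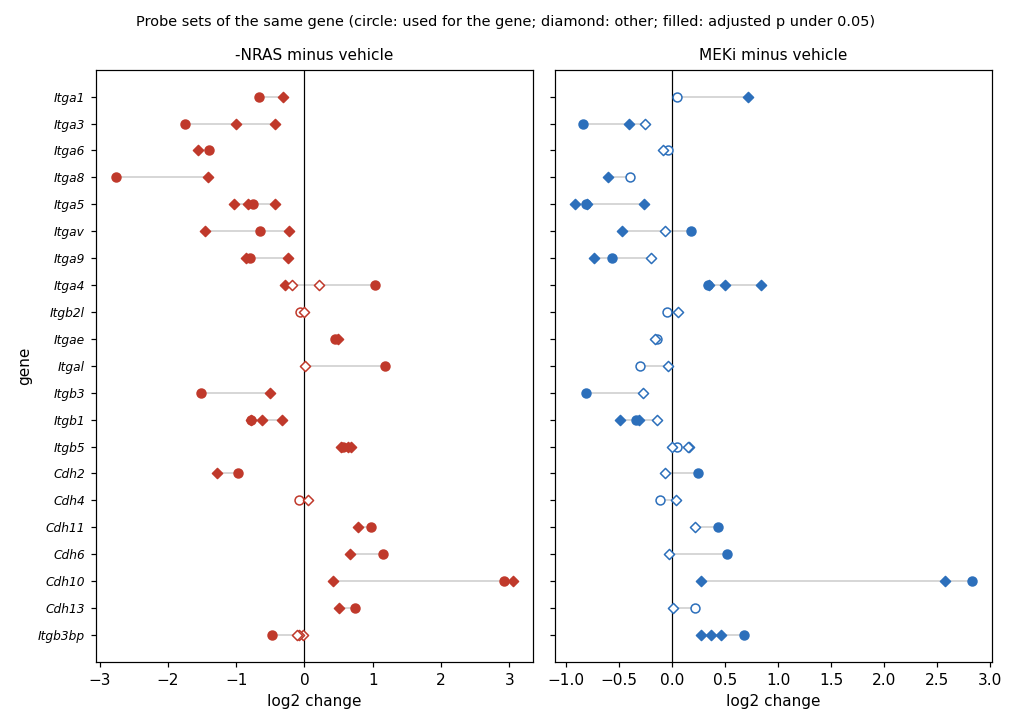
Log2 change of every probe set above the filter for the 21 genes with more than 1 such probe set, -NRAS minus vehicle on the left and MEKi minus vehicle on the right, with circles for the probe set used, diamonds for the others and filled symbols for an adjusted p under 0.05. Itga4 has filled symbols on both sides of 0 in the left panel, and Itgav has them in the right panel.

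Genes that work with these receptors were read from lists of the pathway. The counts stand beside 31.8% higher and 27.5% lower of all genes in -NRAS tumours and 24.3% and 20.9% in MEKi tumours. Of 28 tested genes of the integrin adhesion complex, 11 were higher and 11 lower in -NRAS tumours, and 13 were higher and 6 lower in MEKi tumours (median log2 difference 0.10 and 0.07, beside 0.00 and 0.01 over all genes). Lims2 (PINCH-2) averaged 1453 ± 130.1 in -NRAS tumours, 1524 ± 195 in MEKi tumours and 372 ± 45.2 in vehicle tumours (SD), log2 differences of 1.92 ± 0.09 and 1.99 ± 0.09 against vehicle. Parvb (beta-parvin), which like PINCH-2 sits in the complex around integrin-linked kinase, was lower in both, by −1.48 ± 0.09 in -NRAS and −0.94 ± 0.09 in MEKi tumours on the log2 scale. Fermt3 and Lpxn, the kindlin and the paxillin relative of blood cells, were higher in -NRAS tumours (1.11 ± 0.14 and 1.28 ± 0.15). Both were lower in MEKi tumours (−0.64 ± 0.14 and −0.84 ± 0.15), as was the kinase gene Ptk2b (−0.80 ± 0.17). Ptk2, Fermt1 and Nedd9 were not analysed here.

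Of 22 integrin ligands tested, 10 were higher and 1 lower in -NRAS tumours, and 8 were higher and 3 lower in MEKi tumours, beside the same shares of all genes (median log2 difference 0.26 and 0.10). Lama2, the alpha chain of the laminin that surrounds muscle fibres, averaged 2180.2 ± 425 in -NRAS tumours and 379 ± 93.1 in vehicle tumours (SD), a log2 difference of 2.48 ± 0.16, and rose less in MEKi tumours (0.66 ± 0.16, and 1.83 ± 0.16 for -NRAS minus MEKi). Vcam1 and Icam1, counter-receptors of alpha 4 and of the beta 2 integrins, were higher in -NRAS tumours by 1.44 ± 0.13 and 1.20 ± 0.13, and Icam1 was lower in MEKi tumours (−0.44 ± 0.13). Ibsp, bone sialoprotein, and Tnc, tenascin-C, were higher in both groups, by 1.68 ± 0.39 and 0.63 ± 0.16 in -NRAS and 1.74 ± 0.39 and 0.75 ± 0.16 in MEKi tumours. Npnt, nephronectin, the ligand of alpha 8, was higher in MEKi tumours (1.05 ± 0.21) and did not pass in -NRAS tumours (0.03 ± 0.21, adjusted p = 0.898).

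Of 18 catenins and partners tested, 4 were higher and 4 lower in -NRAS tumours, and 7 were higher and 3 lower in MEKi tumours, again beside those shares (median log2 difference −0.03 and 0.04). Iqgap1, a scaffold that binds beta-catenin, averaged 3319 ± 221 in -NRAS tumours and 6965 ± 696 in vehicle tumours (SD), a log2 difference of −1.06 ± 0.08, and was lower in MEKi tumours (−0.34 ± 0.08). Ctnnd1, p120 catenin, which keeps cadherins at the membrane, was lower in -NRAS tumours (−0.64 ± 0.07), and Pkp4 was lower in both (−0.65 ± 0.09 and −0.45 ± 0.09). Ctnnal1 and Vezt were higher in both, by 0.85 ± 0.08 and 0.33 ± 0.07 in -NRAS and 0.71 ± 0.08 and 0.41 ± 0.07 in MEKi tumours, and Tjp1 was higher in MEKi tumours (0.55 ± 0.07). Of 10 epithelial-mesenchymal transition factors, which include repressors of Cdh1, 3 were higher and 5 lower in -NRAS tumours and 3 were higher and 4 lower in MEKi tumours (median log2 difference −0.15 in both). Foxc2, Snai1 and Twist1 were lower in both groups, by −1.54 ± 0.10, −1.14 ± 0.10 and −0.65 ± 0.10 in -NRAS and −1.64 ± 0.10, −1.06 ± 0.10 and −0.84 ± 0.10 in MEKi tumours. Twist2 was lower in both (−0.61 ± 0.13 and −1.03 ± 0.13), and Tcf4 was higher in both (0.75 ± 0.08 and 0.75 ± 0.08).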

How the data were processed

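The members and lists were chosen with earlier results of these data known. RNA of 18 tumours was read on one-colour Affymetrix arrays. Per the labels' protocols, biotin cRNA was made from 10 ug of Trizol-extracted RNA from roughly 50 mg of tumour without its skin. The authors deposited intensity values for 45037 probe sets. The submitters' processing notes name MAS5 and RMA, and which made this table is not given in the sources used here. The values were read as linear intensities, being positive with like medians, and another scale would change the fold changes. Background and the added 16 understate changes of low levels. The labels give no batch, and the number of arrays limits the precision.

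By the platform annotation 34945 probe sets had 1 symbol, 932 several and 9160 no entry. A gene was read from its probe set with the highest mean, as log2(intensity + 16). The genes whose mean was not above the 25th percentile over probe sets (log2 5.305) were dropped, leaving 15005. A single limma fit (3.58.1, R 4.3.3) held all 3 groups, with Benjamini-Hochberg adjustment within each contrast, and was tested on simulated data. Full values are given for up to 12 members per contrast with the largest called changes and no overlap, and always for Cdh1, Cdh2, Cdh3, Itgb1, Itgb3, Itgav, Itga4, Itga5 and Itga6. Up to 4 genes of each pathway list are named by size of change. Further values were chosen after they were seen. Alternatives changed the filter, probe set rule, normalization, pseudocount, prior, weights, threshold, replicate block and tumours used. Python 3.11.15 with matplotlib 3.10.9 drew the figures.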

Additional observations from a re-analysis of the deposited data

Results flagged for a closer look

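In 117 sets of 6 tumours (39 genes in 3 groups), 10 held a tumour whose intensity stood apart from the other 5 by Dixon's test, where chance alone flags about 1 set in 20. Cdh1 was 269.9 in -NRAS replicate 2, beside 29.7 to 61.5 in the other -NRAS tumours, and 32.2 in MEKi replicate 6, beside 17.6 to 21.9. These 2 tumours had the highest mean log2 level of the keratinocyte markers, while by summed intensity MEKi replicate 6, at 1375, was highest in its group only and lay inside the vehicle range of 1245 to 2009. Itgb1bp2 was 124 in MEKi replicate 4, beside 50.2 to 73.5, in the tumour with the highest skeletal muscle markers of its group. Cdh20 was 30.7 in -NRAS replicate 3, Cdh22 was 36.0 in MEKi replicate 2 and Cdh23 was 29.3 in -NRAS replicate 2, each above the others. Itga2 was low in -NRAS replicate 4 at 51.6, beside 61.9 to 66.3. Among vehicle tumours Itga4 was high in replicate 6 at 216, beside 179 to 189, while in replicate 2 Itgb1bp1 was low at 1044, beside 1251 to 1353, and Itgb7 was low at 73.1, beside 91.2 to 95.8. No call for Itgb1bp2, Itga4, Itgb1bp1 or Itgb7 changed when these tumours were left out.

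A further 4 genes were flagged because -NRAS and MEKi tumours moved to opposite sides of vehicle and differed from each other in limma's direct contrast. The share of all genes tested that did so was not counted. The log2 difference of -NRAS minus MEKi was −1.22 for Cdh2, −0.82 for Itgav, 2.34 for Itgb2 and −1.15 for Itgb3bp. For Cdh2 and Itgav the MEKi change against vehicle had the other sign, or did not pass, on another probe set, and for Itgb3bp the -NRAS change against vehicle passed on 1 of 4 probe sets.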

How the results depend on the processing

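All 6 counts of members stayed within 1.5 times their value under other filters, probe set rules, normalizations, pseudocounts, priors and weights, in pairwise fits, and without the 2 tumours highest in mean keratinocyte marker level. With each tumour left out in turn they were 13 to 14 higher and 13 lower in -NRAS, 9 to 11 higher and 8 to 9 lower in MEKi, and 13 higher and 11 to 13 lower in -NRAS against MEKi tumours. Requiring at least a 2-fold change left 7 higher and 5 lower in -NRAS, 2 and 2 in MEKi, and 2 and 5 in -NRAS against MEKi tumours. An adjusted p under 0.01 left 5 higher in MEKi tumours. These are stricter thresholds by construction.

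Reversals arose for 3 genes when probe sets were averaged or the most variable one was used. Cdh2 in MEKi tumours was −0.0635 (most variable). Itgav in MEKi tumours was −0.0704 (average) and −0.47 (most variable). Itga4 was −0.28 in -NRAS tumours (most variable), and −0.25 (average) and −1.12 (most variable) for -NRAS minus MEKi. The cause was not tested. Of 3702 recomputed gene values 54 changed call or reversed a called direction, in 14 genes, and another 35 that did not pass changed sign. Lost calls were those of Cdh2 and Cdh6 in MEKi tumours with averaged probe sets (0.09 and 0.25), Itga9 for -NRAS minus MEKi with the most variable one (−0.11), and Itga10 in MEKi tumours with a pseudocount of 64 (0.23) or without any of 6 single tumours.

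Replicate numbers were not used to pair the tumours in the main fit. Same-numbered tumours of different groups correlated at −0.1363 to 0.2734 in their deviations from the group means, and 8 of 18 pairs exceeded 0.1. In 2 of 18 tumours the best match in each of the other groups had the same number. These values do not exclude a pairing. With the number as a replicate block the counts of members were the same, at 13 higher and 13 lower in -NRAS, 10 and 8 in MEKi, and 13 and 11 in -NRAS against MEKi tumours. Genes near the filter, such as Cdh20 and Cdh23, could show only large changes on these arrays.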
